A study of Mus musculus with 16 samples.

Results

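The genes described are 10 imprinted genes, most of them regulators of fetal growth: Dlk1, Peg10, Sgce, Igf2, H19, Meg3, Igf2r, Grb10, Mest and Plagl1. They were taken by gene symbol from the polyA tables, where all 10 were found among 43626 genes with reads listed. Of these, 9 also had a value among the 24544 entries of the FPKM table (fragments scaled to transcript length and library size), and Mest is described in reads only. The 4 polyA groups were the cells and the exosomes of AFT024 and the cells and the exosomes of BFC012. Both are stromal lines from fetal liver of C57BL/6 mice at 14.5 dpc (days post coitum), and exosomes are small vesicles that cells release. AFT024 is labelled as able to support hematopoietic stem and progenitor cells and BFC012 as not able to, so the support and the line cannot be told apart. The labels list 2 samples per group, technical sequencing replicates of pooled extractions for the exosomes, and the tables hold 1 merged value per group.

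Imprinted genes are transcribed mainly from the allele of one parent, under the control of DNA methylation set in the germ line. In mouse, paternally expressed genes such as Igf2, Dlk1, Peg10 and Mest mostly promote fetal or placental growth, and maternally expressed genes such as H19, Igf2r and Grb10 mostly restrain it. Several form clusters in which a protein-coding gene and a long noncoding RNA share one control region, as do Igf2 with H19 and Dlk1 with Meg3. The files do not separate the parental alleles, so what follows describes total levels and not imprinting itself.

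The polyA tables held 39385534 reads for AFT024 cells, 9038471 for AFT024 exosomes, 35874383 for BFC012 cells and 16344350 for BFC012 exosomes. A count of 0 is given an upper limit of 3 reads, which equals 0.0762, 0.332, 0.0836 and 0.184 reads per 1000000 reads (RPM) in the same order. With 1 value per group there was no replicate error, no test and no p-value. The intervals given are exact Clopper-Pearson 95% intervals from a gene's split of reads between both groups and cover counting error only. A ratio given as at least is set against 3 reads and leaves out counting error, so its exact lower limit is lower. Groups were compared by the ratio of reads after median-of-ratios scaling, and a gene was assessed where at least 1 of both groups had 20 reads. Both lines had stromal transcripts: 7 of 9 mesenchymal markers had at least 20 reads in the cells of AFT024 and 6 of 9 in those of BFC012, with summed levels of 5256 and 2371 RPM. Of 7 mesenchymal markers assessed in cells, 4 were at least 2-fold higher in AFT024 (12% of all genes assessed) and 1 was lower (9.39%). Col1a2 had 1717 against 12 reads, and Dcn, the lower one, had 339 against 3388. Haematopoietic, erythroid, endothelial and hepatocyte marker lists stayed between 0 and 3.92 RPM in every group. The epithelial and mesothelial list summed to 95.3 RPM in AFT024 cells and 436 in BFC012 cells. Among its 5 genes assessed in cells, 1 was at least 2-fold higher in AFT024 (12% of all genes assessed) and 3 were lower (9.39%). The lower ones included Upk3b, 5 against 13308 reads, and Cdh1, 3 against 756. Msln went the other way, 3699 against 1467 (2.35-fold higher in AFT024), and made up most of the 3752 list reads of AFT024. In exosomes 2 of 4 were higher in AFT024, Msln (535 against 29) and Krt8 (32 against 8), and 2 were lower. Of all genes assessed in exosomes, 13.5% were higher and 15.4% lower. The part of such differences between the lines in the results was not tested. In bulk RNA, fewer cells that express a gene and less RNA per cell cannot be told apart.

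The 3 members whose reads separated the lines most in cells were Dlk1, Peg10 and Sgce, all of them AFT024 transcripts. Dlk1 encodes a transmembrane protein with EGF repeats that is shed from the cell surface, resembles Notch ligands and holds back differentiation of precursor cells. It lies on chromosome 12 (mm10, 109452823 to 109463336, plus strand), 77.7 kb upstream of Meg3, the maternally expressed long noncoding RNA of the same domain (109541001 to 109571726). The stretches of 250 bases upstream of both starts are shown because Dlk1 and Meg3 share a control region. They come from RefSeq (GRCm38.p6, which shares coordinates with mm10), and capitals mark CpG, the dinucleotide that carries the methylation of imprints.
Dlk1, chr12:109452573-109452822, plus strand: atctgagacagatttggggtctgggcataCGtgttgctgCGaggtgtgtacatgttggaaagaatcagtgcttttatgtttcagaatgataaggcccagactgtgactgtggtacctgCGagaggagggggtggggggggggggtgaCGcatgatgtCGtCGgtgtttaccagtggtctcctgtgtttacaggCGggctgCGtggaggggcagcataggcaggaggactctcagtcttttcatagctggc
Meg3, chr12:109540746-109540995, plus strand: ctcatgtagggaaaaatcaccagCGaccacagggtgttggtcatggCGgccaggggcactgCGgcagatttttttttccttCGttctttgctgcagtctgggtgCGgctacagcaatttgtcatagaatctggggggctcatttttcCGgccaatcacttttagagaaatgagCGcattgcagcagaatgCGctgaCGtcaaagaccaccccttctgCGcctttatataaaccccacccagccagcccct
The Dlk1 stretch held 8 CpG and the Meg3 stretch 10, against a median of 6 over 32851 such stretches. TGCCGC, letters that belong to the motif bound by the imprint factor ZFP57, was searched on both strands (the other reads GCGGCA). It occurred in the Meg3 stretch and not in that of Dlk1, and 8.68% of all stretches held it. Among the members, 7 had entries in the RefSeq promoter table, with 14 starts, and 4 of these held the motif (1 of Meg3, 2 overlapping ones of Mest and 1 of Plagl1).

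Dlk1 had 29686 reads in AFT024 cells, 233 in AFT024 exosomes, 9 in BFC012 cells and 5 in BFC012 exosomes. In FPKM these were 931, 13.8, 0.269 and 0.143. Its order was thus AFT024 cells, then AFT024 exosomes, then both BFC012 groups, whose read shares overlapped in their intervals. The ratio of AFT024 over BFC012 was 3070 in cells (1617 to 6715) and 81.4 in exosomes (34.4 to 253), and of the genes assessed in cells Dlk1 had the second-largest ratio. Between the fractions of AFT024 it was 21.8-fold lower in exosomes (19.2 to 24.95). In that comparison 69 of 12998 genes, 0.531%, had a ratio at least as low. Meg3 followed the same order in AFT024, with 394 reads in cells and 3 in exosomes, 22.5-fold lower (7.65 to 110). In BFC012 Meg3 had 0 reads in cells and 5 in exosomes. The ratio of the lines in cells was at least 122, computed against 3 reads, with an exact lower limit of 99.0. In FPKM Meg3 stood at 2.36 in AFT024 cells and 0.0492 in their exosomes, and at 0.00206 and 0.139 in the cells and exosomes of BFC012. Reads of Dlk1 were 75.3 times those of Meg3 in AFT024 cells and 77.7 times in their exosomes, the latter on 3 reads of Meg3. In FPKM, which is per length, Dlk1 stood 395 and 281 times higher. Begain, the next gene upstream of Dlk1, had 13, 0, 11 and 2 reads in the order AFT024 cells, AFT024 exosomes, BFC012 cells and BFC012 exosomes, and Rtl1, downstream of Meg3, had at most 2 in any group.

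**Figure D1:**
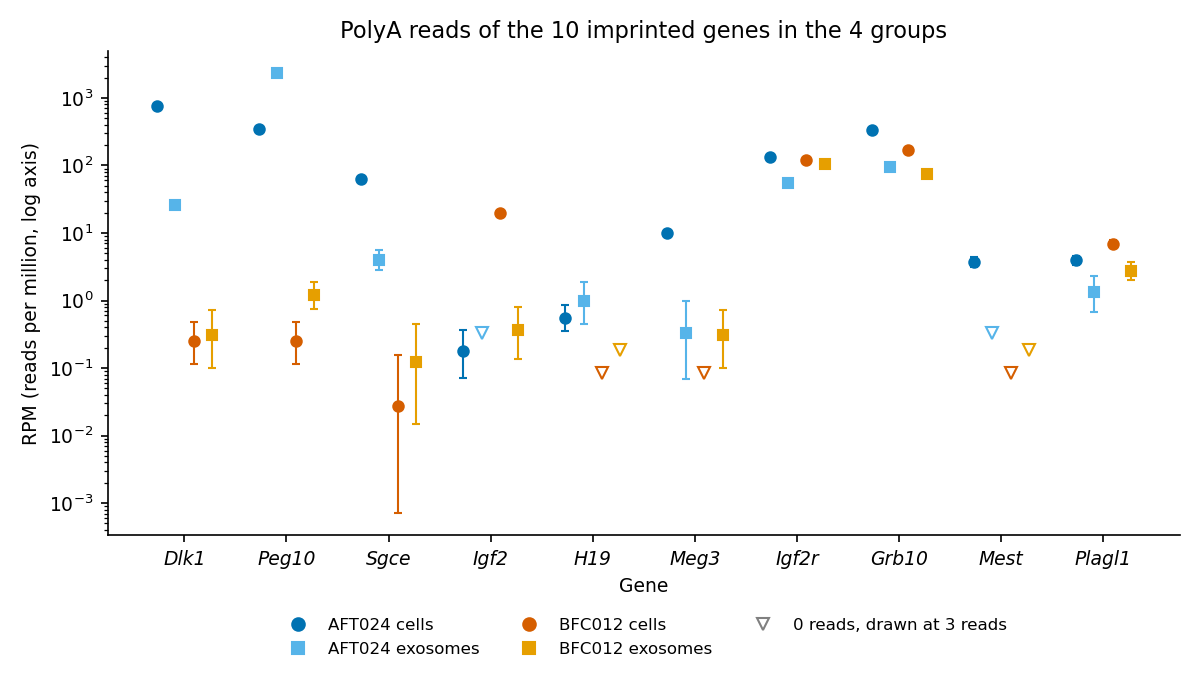
RPM (log axis) of the 10 genes in the 4 groups, with exact 95% intervals for counting error; circles are cells, squares exosomes, and open triangles mark 0 reads drawn at the value of 3 reads. Dlk1, Peg10 and Sgce stand apart by line, Igf2 the other way, and Igf2r and Grb10 span the smallest ranges in fold, 55.4 to 132 and 73.5 to 334 RPM.

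Peg10 and Sgce start 99 bases apart on chromosome 6 on opposite strands, Sgce at 4674350 to 4747207 and Peg10 at 4747306 to 4760517. Peg10 is a domesticated retrotransposon with gag-like and pol-like reading frames that the placenta requires, and its gag-like protein can form particles that leave the cell. Sgce encodes epsilon-sarcoglycan, a membrane protein of the dystrophin-associated complex. Peg10 had 13596 reads in AFT024 cells, 20989 in AFT024 exosomes, 9 in BFC012 cells and 20 in BFC012 exosomes. Both AFT024 groups were high, both BFC012 groups low, and within each line the exosomes were higher. Sgce had 2516, 36, 1 and 2 reads in the same order, or 36.6, 1.19, 0.0191 and 0.0475 FPKM, and was high in AFT024 cells only. The ratio of the lines in cells was 1406 for Peg10 (741 to 3076) and 2342 for Sgce (420 to 92538, from 1 read in BFC012). In exosomes it was 1834 for Peg10 (1187 to 3003), the second-largest of 11850 genes assessed, and 31.5 for Sgce (8.10 to 270).

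Within AFT024 these neighbours went in opposite directions between the fractions. Peg10 was 9.01-fold higher in exosomes than in cells (8.81 to 9.20) and Sgce was 12.0-fold lower (8.63 to 17.1). Peg10 made up 0.0345% of the polyA reads of AFT024 cells and 0.232% of those of their exosomes (0.229% to 0.235%), where it was the 44th gene by reads. In BFC012 the Peg10 ratio of exosomes over cells was 6.91 (3.01 to 17.2) on 20 and 9 reads. Dividing the AFT024 ratio by the BFC012 ratio gave 1.30 (0.523 to 2.998), so a difference between the lines in this ratio was not detectable at this depth. Ratios at least as high as that of Peg10 were found for 405 of 12998 genes in AFT024, 3.12%, and for 514 of 12845 in BFC012, 4.002%. Casd1, the next gene on the far side of Sgce, had 1011, 67, 812 and 93 reads and was within 2-fold between the lines in both fractions.

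The FPKM of Peg10 were 306 in AFT024 cells, 2058 in their exosomes, 0.220 in BFC012 cells and 1.08 in BFC012 exosomes, and they differ in construction from those of other genes. FPKM divided by RPM, a quotient that reflects transcript length and the library scaling, was 0.886 for Peg10 in both AFT024 groups. Over 9795 genes with 20 reads in both, the quotient in cells was 1.91 times that in exosomes at the median, and it was 2.30 times for Dlk1, 1.92 for Sgce, 1.91 for Igf2r and 1.86 for Grb10. Peg10 was 1 of 12 of these genes that had quotients equal within 1%. The Peg10 FPKM of exosomes is therefore not on the scale of the other members' FPKM, and its comparisons here rest on reads. The quotient of H19, which had fewer than 20 reads in exosomes, was also the same in both AFT024 groups (0.446).

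Igf2 encodes the growth factor IGF-II and H19 a maternally expressed noncoding RNA, 72.6 kb apart on chromosome 7 (Igf2 at 142650766 to 142666816, H19 at 142575529 to 142578143, both on the minus strand). Igf2 was the member with the opposite line pattern. It had 700 reads in BFC012 cells, 6 in BFC012 exosomes, 7 in AFT024 cells and 0 in AFT024 exosomes, or 4.49, 0.185, 0.0412 and 0 FPKM. Cells of BFC012 exceeded those of AFT024 by 107-fold (51.9 to 268). Within BFC012 the exosomes had 37.5-fold less than the cells (17.2 to 103), and 21 of 12845 genes had a ratio at least as low. H19 was low throughout, with 22 reads in AFT024 cells, 9 in AFT024 exosomes and 0 in both BFC012 groups. It was at least 6.83-fold higher in AFT024 cells than in BFC012 cells (exact lower limit 5.10). The antisense gene Igf2os had at most 1 read in any group, and Ins2, the insulin gene next to Igf2, had 0.

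The receptors and adaptors differed less between the lines. Igf2r encodes the mannose 6-phosphate receptor that takes IGF-II to lysosomes (chromosome 17, 12682406 to 12769664, minus strand). It had 5208 reads in AFT024 cells, 501 in AFT024 exosomes, 4269 in BFC012 cells and 1692 in BFC012 exosomes, or 12.4, 2.72, 11.0 and 6.83 FPKM. The cells of both lines were close, with a ratio of AFT024 over BFC012 of 1.14 (1.09 to 1.18). The exosomes were further apart, with BFC012 1.93-fold higher (1.75 to 2.14). Exosomes over cells gave 0.561 in AFT024 (0.511 to 0.615) and 1.23 in BFC012 (1.16 to 1.30). Scaling by total reads gave 0.419 and 0.870, and FPKM plus 1 gave 0.278 and 0.651, so that the direction in BFC012 depended on the scale. The AFT024 ratio was 0.456 times the BFC012 ratio (0.408 to 0.508). Airn, a noncoding RNA that runs through Igf2r on the other strand, had 180, 46, 91 and 34 reads, and reads from the shared stretch cannot be told apart without strand.

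Grb10 encodes an adaptor that binds the insulin and IGF-I receptors and restrains their signalling (chromosome 11, 11930508 to 12038683, minus strand). It had 13138 reads in AFT024 cells, 858 in AFT024 exosomes, 6075 in BFC012 cells and 1201 in BFC012 exosomes, or 56.9, 8.73, 28.8 and 9.11 FPKM. The cells were 2.01-fold apart (1.95 to 2.08), and 1.97-fold with scaling by total reads. The exosomes were closer, at 1.25 (1.14 to 1.36), or 0.962 on the scale of FPKM plus 1. In both lines the exosomes were below the cells, 2.62-fold in AFT024 (2.45 to 2.82) and 1.63-fold in BFC012 (1.53 to 1.73). The AFT024 ratio was 0.620 times the BFC012 ratio (0.565 to 0.681). The flanking genes showed another line pattern, with Ddc at 5, 9, 70 and 47 reads and Cobl at 53, 6, 617 and 314, both lower in AFT024.

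Plagl1 encodes a zinc finger transcription factor that activates other imprinted genes (chromosome 10, 13060504 to 13131694, plus strand). It had 156 reads in AFT024 cells, 12 in AFT024 exosomes, 246 in BFC012 cells and 45 in BFC012 exosomes, or 0.743, 0.130, 1.27 and 0.401 FPKM. BFC012 was higher in cells, 1.69-fold (1.38 to 2.08), and in exosomes, 2.15-fold (1.12 to 4.46). Exosomes were lower than cells, by 2.23-fold in AFT024 (1.24 to 4.41) and 1.76-fold in BFC012 (1.28 to 2.47). The ratio of these changes was 0.791 (0.369 to 1.58), an interval that includes 1.

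Mest encodes a hydrolase-like protein of mesodermal tissue (chromosome 6, 30723547 to 30748465, plus strand), and an intron of it holds the gene of miR-335. Its 250 bases upstream of a start with 14 CpG are shown because they hold 2 matches of the motif, both read as GCGGCA on this strand.
Mest, chr6:30737800-30738049, plus strand: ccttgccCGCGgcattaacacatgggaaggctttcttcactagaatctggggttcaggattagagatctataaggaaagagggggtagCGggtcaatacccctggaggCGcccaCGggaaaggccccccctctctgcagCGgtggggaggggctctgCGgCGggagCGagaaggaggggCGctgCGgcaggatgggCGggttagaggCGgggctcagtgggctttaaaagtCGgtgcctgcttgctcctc
Mest had 146 reads in AFT024 cells and 0 in the other 3 groups. The ratio of the lines in cells was at least 45.3 and that of AFT024 cells over exosomes at least 8.34, both against 3 reads. Their exact lower limits were 36.4 and 6.70. Copg2, which overlaps Mest on the other strand, had 1138, 119, 2246 and 663 reads, so the lines differed there in the other direction, and reads of the overlap cannot be told apart without strand.

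**Figure D2:**
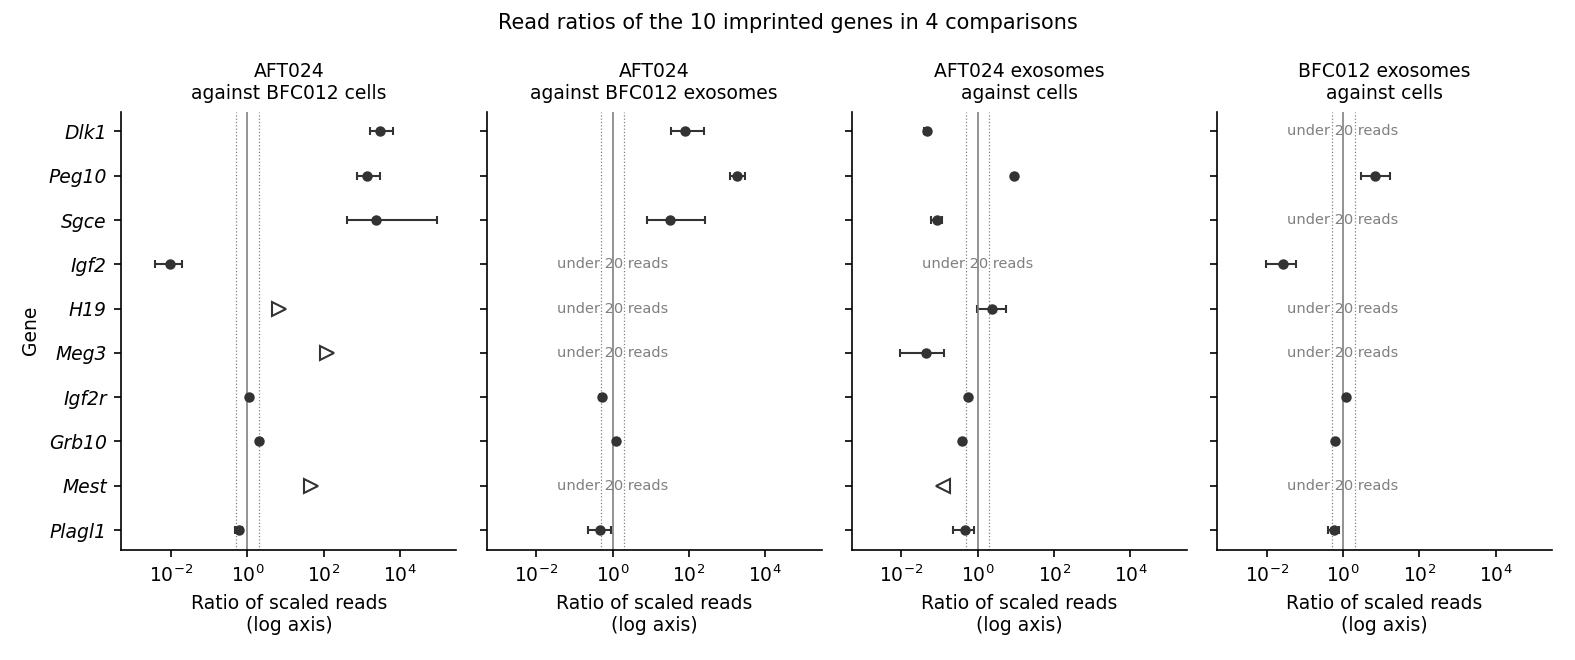
Ratio of scaled reads (log axis) of the 10 genes in each of the 4 comparisons; bars are exact 95% intervals for counting error, open triangles are bounds against 3 reads, the solid line is 1 and dotted lines mark 2-fold. Peg10 is the member above 2-fold in exosomes over cells in both lines, and Dlk1, Sgce and Meg3 lie below in AFT024.

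Counted together, 7 of the 10 genes were at least 2-fold higher in AFT024 cells than in BFC012 cells (12% of 13520 assessed genes) and 1, Igf2, was at least 2-fold lower (9.39%). In exosomes 6 could be assessed, of which Dlk1, Peg10 and Sgce were higher in AFT024 (13.5% of 11850 genes) and Plagl1 was lower (15.4%). For AFT024 exosomes over cells, 9 could be assessed, with Peg10 and H19 higher (19.9% of 12998 genes) and 6 lower (28.7%). The H19 ratio was 2.39 (0.967 to 5.39), and 1.78 with scaling by total reads. For BFC012, 5 could be assessed, with Peg10 higher (22.4% of 12845 genes) and Igf2 lower (27.7%). Among the members past 2-fold between the cells of the lines, only Grb10 had 20 reads in both. Dlk1, Peg10, Sgce, Igf2, H19, Meg3 and Mest passed the minimum of 20 reads through the group where they were high and so had to differ. In the other comparisons some members likewise had 20 reads in 1 group only, and the counts are a description only. Comparisons share groups, AFT024 cells for example serving in 2 of them, and are not independent of each other. Of the 4 members with enough reads in both lines, the interval of the ratio between the lines excluded 1 for 2, Igf2r and Grb10, both with a lower ratio of exosomes over cells in AFT024.

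The miRNAs made from these transcripts were read from the small RNA libraries, which held 17293776 reads for AFT024 cells, 1120450 for AFT024 exosomes, 17547485 for BFC012 cells and 1247068 for BFC012 exosomes. Mature sequences are shown for miR-335, from the Mest intron, and for miR-127 and miR-434. The source of miR-127 and miR-434 is the maternally expressed RNA antisense to Rtl1 in the Dlk1 and Meg3 domain. The sequences are shown because the reads of these miRNAs differed between cells and exosomes, and for miR-335 also between its arms. They are from RefSeq (GRCm38.p6), and capitals mark the seed, bases 2 to 8 from the 5′ end, which pairs with targets.
miR-335-5p: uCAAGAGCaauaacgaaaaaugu
miR-335-3p: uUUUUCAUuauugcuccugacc
miR-127-3p: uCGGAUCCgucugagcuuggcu
miR-434-3p: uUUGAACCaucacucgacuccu
The 4 seeds all differ. Reads of miR-335-5p were 264 in AFT024 cells, 128 in AFT024 exosomes, 1 in BFC012 cells and 139 in BFC012 exosomes. In cells AFT024 thus exceeded BFC012 by 266-fold (47.4 to 10564), as for Mest, while the exosomes of both lines were at a ratio of 0.926 (0.723 to 1.19). The other arm, miR-335-3p, had 348, 16, 0 and 1 reads in that order, at least 117-fold higher in AFT024 cells than in BFC012 cells (exact lower limit 94.7). Its exosome ratio of AFT024 over BFC012 was 16.1 (2.50 to 674.9), unlike that of miR-335-5p.

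For miR-127-3p the reads were 8639 in AFT024 cells, 8005 in AFT024 exosomes, 164 in BFC012 cells and 6342 in BFC012 exosomes, a ratio of the lines of 53.2 in cells (45.6 to 62.4) and 1.27 in exosomes (1.23 to 1.31), with BFC012 exosomes 292-fold above their cells (249.7 to 343). For miR-434-3p, made from the same antisense RNA, they were 6002, 3, 21 and 20, 288-fold higher in AFT024 cells than in BFC012 cells (189 to 466) and 266-fold lower in AFT024 exosomes than in AFT024 cells (91.1 to 1292), but 7.18-fold higher in BFC012 exosomes than in BFC012 cells (3.69 to 13.9), whose libraries differ in depth. The labels do not describe the culture medium, and where the miR-335-5p and miR-127-3p reads of BFC012 exosomes came from was not tested. miR-675 of H19, miR-483 of Igf2 and miR-770 of Meg3 had at most 9 reads per arm in any group.

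**Figure D3:**
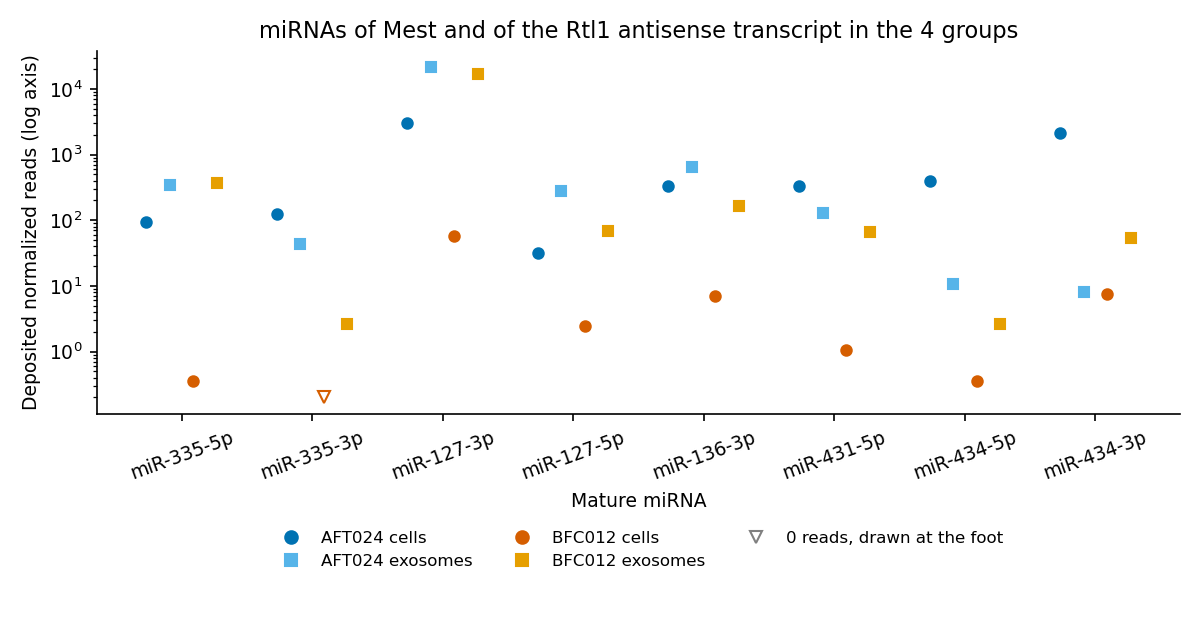
Deposited normalized reads (log axis) of miR-335 and of the miRNAs antisense to Rtl1 in the 4 groups; circles are cells and squares exosomes. The BFC012 cells are the lowest of the 4 groups for each of these 8 miRNAs, by little for miR-434-3p (7.41 against 8.02 in AFT024 exosomes), while miR-335-5p and miR-127-3p are level between the exosomes of both lines.

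Beyond the 10 members, 53 of 57 further imprinted genes were found in the read tables. In cells 34 could be assessed, of which 5 were at least 2-fold higher in AFT024 (12% of all genes assessed) and 8 lower (9.39%), with a median log2 ratio of 0.03 against 0.00 over all genes assessed. Some of these genes were far apart between the lines, in either direction. Slc38a4, an amino acid transporter gene, counted 24374 reads in the cells of AFT024 and 228 in those of BFC012, a ratio of 99.5 (87.3 to 114). Cdkn1c, which encodes a cyclin-dependent kinase inhibitor that restrains growth, had 418 and 0 reads, a ratio of at least 130 (exact lower limit 105). On the other side, the zinc finger gene Peg3 counted 9 reads in the cells of AFT024 and 3993 in those of BFC012 (477-fold, 251 to 1043) and Ndn 3 and 813 (291-fold, 99.3 to 1415). In exosomes 31 could be assessed, with 4 higher (13.5% of all genes) and 11 lower (15.4%) in AFT024 (median -0.24 against -0.10). Among the lower ones were Ndn with 1 against 303 reads and Peg3 with 12 against 1602. Of exosomes over cells, 4 were higher and 13 lower of 31 in AFT024 (median -0.48 against -0.29), and 5 higher and 8 lower of 31 in BFC012 (-0.12 against -0.16). Among all genes assessed, 19.9% were higher and 28.7% lower in AFT024, and 22.4% and 27.7% in BFC012. Slc38a4 was 23.2-fold lower in AFT024 exosomes than in their cells (20.045 to 27.03), close to the 21.8-fold of Dlk1, while Mkrn3 was 7.63-fold higher (6.04 to 9.66).

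**Figure D4:**
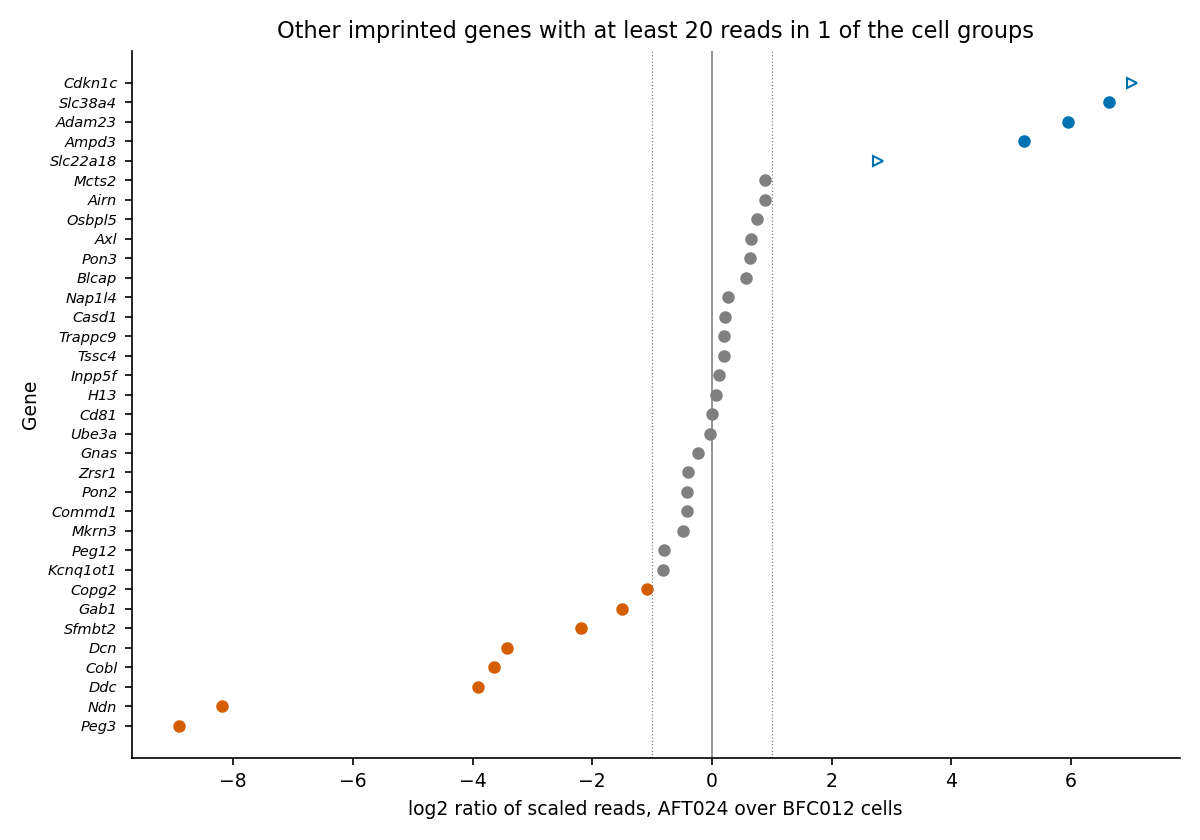
Log2 ratio of scaled reads of AFT024 over BFC012 cells for the 34 other imprinted genes with at least 20 reads in 1 of the groups; blue points are at least 2-fold higher, orange at least 2-fold lower, grey between, and open triangles are bounds against 3 reads. The list runs from Peg3 at the BFC012 end to Cdkn1c at the AFT024 end, with 21 genes between the 2-fold lines.

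The partners through which the members act were described from fixed lists. Of 20 genes of IGF and insulin signalling, 16 could be assessed, and in cells 3 were at least 2-fold higher in AFT024 and 1 lower (median log2 ratio 0.02 against 0.00 over all genes). Igf1, the ligand gene next in family to Igf2, counted 410 reads in the cells of AFT024 and 153 in those of BFC012, a ratio of 2.49 (2.07 to 3.02). In exosomes 1 was higher in AFT024 and 2 were lower (median -0.25 against -0.10). Between the fractions 6 were higher in exosomes and 2 lower in AFT024 (median 0.52 against -0.29), and 7 and 2 in BFC012 (0.82 against -0.16). Over all genes assessed, the shares higher and lower in AFT024 were 12% and 9.39% in cells and 13.5% and 15.4% in exosomes. The shares higher and lower in exosomes than in cells were 19.9% and 28.7% in AFT024 and 22.4% and 27.7% in BFC012. Irs1, which relays the IGF-I and insulin receptor signal, was higher in exosomes by 19.2-fold in AFT024 (18.6 to 19.9) and 23.9-fold in BFC012 (22.6 to 25.2). The receptor gene Igf1r was lower, by 5.12-fold (3.70 to 7.27) and 5.32-fold (4.43 to 6.44).

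Of 13 genes that bind IGFs or their mRNAs, 11 were assessed in cells, with 3 higher and 4 lower in AFT024 (median -0.30 against 0.00). The IGF-binding protein genes divided: Igfbp6, whose product prefers IGF-II, counted 3740 reads in the cells of AFT024 and 98 in those of BFC012 (ratio 35.5, 29.1 to 43.9), and Igfbp2 had 1 and 895 (962-fold the other way, 172 to 38020). Of the 9 assessed in exosomes, 3 were higher and 2 lower in AFT024 (median 0.00 against -0.10). In AFT024 exosomes over cells 1 of 9 was higher and 4 lower (median -0.91 against -0.29), and in BFC012 1 of 11 was higher and 5 lower (-0.47 against -0.16). All assessed genes had shares higher and lower in AFT024 of 12% and 9.39% in cells and 13.5% and 15.4% in exosomes. For exosomes over cells these shares were 19.9% and 28.7% in AFT024 and 22.4% and 27.7% in BFC012. Igfbp7, which encodes a secreted protein, was 16.2-fold lower in AFT024 exosomes (13.02 to 20.5), and Igf2bp1, which encodes a protein that binds Igf2 mRNA, was 4.75-fold higher (4.53 to 4.98).

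Among 15 Notch pathway genes, with which Dlk1 is known to interact, 12 were assessed in cells, 5 higher and 2 lower in AFT024 (median 0.04 against 0.00). Notch3 counted 1425 reads in the cells of AFT024 and 131 in those of BFC012 (ratio 10.1, 8.46 to 12.2), and the ligand gene Jag1 had 250 and 832, 3.58-fold lower (3.10 to 4.13). In exosomes 2 of 9 were higher and 4 lower (median -0.85 against -0.10), Jag1 among them with 10 reads against 662. Exosomes over cells gave 3 higher and 4 lower of 12 in AFT024 (median 0.21 against -0.29) and 3 higher and 1 lower of 9 in BFC012 (0.54 against -0.16). Of all genes assessed, 12% were higher and 9.39% lower in AFT024 cells, and 13.5% and 15.4% in AFT024 exosomes, each against BFC012. For exosomes over cells the shares were 19.9% and 28.7% in AFT024 and 22.4% and 27.7% in BFC012. Notch3 was higher in exosomes of both lines, by 33.9-fold in AFT024 (32.0 to 35.9) and 33.5-fold in BFC012 (27.99 to 40.4).

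The partners of Sgce in the dystrophin complex had 10 of 14 genes assessed in cells, 1 higher and 2 lower in AFT024 (median -0.40 against 0.00). The higher one was Sgcd, delta-sarcoglycan, with 153 reads in the cells of AFT024 and 1 in those of BFC012, and beta-sarcoglycan Sgcb had 389 and 940. In exosomes 0 of 8 were higher in AFT024 and 2 lower (median -0.31 against -0.10). The shares of all genes higher and lower in AFT024 were 12% and 9.39% in cells and 13.5% and 15.4% in exosomes. Exosomes over cells gave 3 higher and 1 lower of 9 in AFT024 (median 0.12 against -0.29, with 19.9% of all genes higher and 28.7% lower) and 3 higher and 2 lower of 9 in BFC012 (0.37 against -0.16, with 22.4% and 27.7%). Sgcb was lower by 4.76-fold (2.80 to 8.79) in AFT024, as Sgce was. Of the 25 gag-derived genes related to Peg10, 14 were found by symbol and 4 were assessed in cells, 2 of them higher in AFT024, Arc with 595 against 51 reads and Rgag4 with 499 against 203. In exosomes 0 of 2 passed 2-fold. The medians were 0.94 in cells and 0.55 in exosomes, against 0.00 and -0.10 over all genes. For exosomes over cells they were -0.16 in AFT024 and 0.34 in BFC012, against -0.29 and -0.16. Of all genes, 12% were higher and 9.39% lower in AFT024 cells, and 13.5% and 15.4% in AFT024 exosomes. For exosomes over cells the shares were 19.9% and 28.7% in AFT024 and 22.4% and 27.7% in BFC012. Between the fractions of AFT024, where Peg10 was 9.01-fold higher in exosomes, 0 of 4 were higher and 1 lower, and in BFC012 2 were higher, Arc with 145 against 51 reads (8.83-fold, 6.38 to 12.4) and Rgag4, and 2 lower. The PLAG family and its targets had 4 genes assessed in cells. Cdkn1c alone was past 2-fold there, higher in AFT024 (12% of all genes, median -0.16 against 0.00). In exosomes 1 of 3 was higher in AFT024 (13.5% of all genes, median 0.51 against -0.10). Exosomes over cells gave 2 higher and 1 lower of 4 in AFT024 (19.9% and 28.7% of all genes, median 0.10 against -0.29) and 1 higher and 1 lower of 3 in BFC012 (22.4% and 27.7%, 0.36 against -0.16).

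Genes of imprint maintenance and DNA methylation, Tet1, Tet2 and Tet3 included, were close between the lines in cells. There 1 of 19 assessed, Dnmt3l with 22 against 3 reads, was higher in AFT024 and 0 lower (median -0.12 against 0.00). In exosomes 0 of 18 were higher in AFT024 and 2 lower (-0.38 against -0.10). The shares of all genes higher and lower were 12% and 9.39% in cells and 13.5% and 15.4% in exosomes. Between the fractions of AFT024, 6 of 19 were higher in exosomes and 4 lower (median -0.15 against -0.29), and of BFC012 8 and 3 of 18 (-0.03 against -0.16), where 19.9% and 22.4% of all genes were higher and 28.7% and 27.7% lower. Dnmt3a, a de novo DNA methyltransferase gene, had 1005 reads in AFT024 cells and 7088 in AFT024 exosomes, 41.1-fold higher after scaling (38.5 to 44.0), and 1571 and 21195 in BFC012, 41.9-fold (39.8 to 44.2). Dnmt1, the maintenance enzyme gene, was lower in exosomes than in cells, by 5.32-fold in AFT024 (4.91 to 5.77) and 4.61-fold in BFC012 (4.35 to 4.89).

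Among the genes with the profile most like that of Dlk1 over the 4 groups, by distance between centred log2 RPM among 11416 genes, were Xist, Ctsz, Slc5a7 and Hoxc8, at distances of 1.21 to 1.87. Xist, the noncoding RNA that coats an inactive X chromosome, had 43076 reads in AFT024 cells, 201 in AFT024 exosomes, 17 in BFC012 cells and 17 in BFC012 exosomes. The profiles nearest to Peg10 were Pcdh7, Pogk, Cspg4, Sall1 and Thbd, at distances of 2.30 to 2.81 and therefore less close. Cspg4, which encodes a surface proteoglycan, had 1328, 1294, 1 and 11 reads. Likeness over 4 merged values is a description and was not tested.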

How the data were processed

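PolyA and small RNA were sequenced in 16 samples, 2 per group, and the deposited tables hold 1 value per group, merged by the authors per the design text. The submitters' processing notes name TopHat, Cufflinks, Bowtie and the build mm10. No source used here gives the read counter, its use of strand or the annotation release. The deposited table of all polyA groups holds FPKM per the file headers. The authors' pairwise polyA tables and the small RNA table hold a normalized signal, reads divided by a size factor, from which whole reads were recovered (100% of values whole within 0.01 reads, and equal between tables). Decimal commas were read as points. Entries without a gene identifier numbered 3 and had 0 reads. No value column was left out.

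Ratios used median-of-ratios size factors over the 4 polyA groups, or for small RNA those deposited, with exact 95% intervals for counting error. Assessed genes had at least 20 reads in 1 of both groups, 2-fold was counted, and a group at 0 was set to 3 reads. With 1 value per group no p-value was computed. Scripts (Python 3.11.15, SciPy 1.17.1) were tested on simulated data. Alternatives were total-read and trimmed-mean (TMM) scaling, minimums of 0 or 100 reads, FPKM with 1 or 0.1 added, and the whole interval past 2-fold. Positions and neighbours are from GENCODE on mm10.

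The members, the 8 gene lists and the 6 marker lists were chosen with earlier results of these data known. Named genes were all members, up to 4 genes a list and comparison with the largest change past 2-fold and at least 100 reads, the neighbours of members, miRNAs made from member transcripts or antisense to Rtl1, and the 5 nearest profiles (RPM + 0.1, at least 100 reads in a group) of Dlk1 and Peg10. One of the latter is not reported here.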

Additional observations from a re-analysis of the deposited data

Results flagged for a closer look

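After median-of-ratios scaling, Igf2r lay on opposite sides of 1 in the lines for exosomes over cells. The read ratio of exosomes over cells was 0.561 in AFT024 (501 and 5208 reads) and 1.23 in BFC012 (1692 and 4269 reads). The difference was not tested with replicates. The interval of the ratio of both ratios, 0.456 (0.408 to 0.508), covers counting error only. With scaling by total reads the BFC012 ratio was 0.870, on the same side as that of AFT024. On FPKM plus 1 the BFC012 ratio was also below 1 (log2 ratio -0.618), so its direction depended on the scale.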

How the results depend on the processing

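No paired analysis was possible because the tables hold 1 merged column per group, so neither a replicate block nor leaving out a replicate could be run. No ratio of a member that passed 2-fold changed its side of 1 under the alternatives run. Over 191 recomputed member ratios 123 moved by less than their counting interval and 68 by more, 57 of these with FPKM in place of reads. Of the 123, 30 with no minimum and 25 with a minimum of 100 reads could not move. A minimum changes only which genes are assessed and not their ratios. Adding 1 to FPKM shrinks ratios against low groups, to 735 for Dlk1 and 36.9 for Sgce between the cells of the lines. Of 69 recomputed counts of members, 48 stayed within 1.5 times.

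With FPKM in place of reads (1 added, with or without a minimum, or 0.1 added), the members higher in AFT024 cells numbered 4 in place of 7, and those higher in AFT024 exosomes over cells 1 in place of 2. In cells, Mest had no FPKM and could not be counted. H19 was under the minimum of 1 FPKM, and at 1.25 with no minimum. Grb10 was at 1.94 with 1 added and 1.97 with 0.1 added. In reads, 6 in place of 7 were higher in AFT024 cells with scaling by total reads. The number was also 6 with a minimum of 100 reads or the whole interval past 2-fold. In BFC012 exosomes over cells, FPKM with 1 added gave 0 higher in place of 1 and 2 lower in place of 1, and FPKM with 0.1 added gave 3 lower. The gene no longer higher with 1 added is Peg10 (1.70), whose FPKM differ in construction from those of other genes. The FPKM alternatives could not be run for the difference between the lines in exosomes over cells, which needs counts. Scaling by total reads gave 1 higher in AFT024 exosomes over cells and 3 lower in BFC012. It shifted the median gene by -0.42 and -0.50 on the log2 scale in these comparisons, and TMM by -0.11 and -0.16.

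A minimum of 100 reads left 0 members lower in AFT024 exosomes against BFC012 exosomes in place of 1, 1 higher in AFT024 exosomes over cells, and 0 higher in BFC012. With no minimum, 3 were higher in BFC012 exosomes over cells, and 4 in place of 2 had an interval between the lines that excluded 1. Where the whole interval had to pass 2-fold, 0 were lower in AFT024 exosomes against BFC012 exosomes, 1 was higher in AFT024 exosomes over cells, and 0 differed between the lines. Depth limited Dlk1, Peg10 and Sgce in BFC012, which had 1 to 20 reads.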
